A study of Rattus norvegicus with 6 samples.

Results

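The genes described here are 10 of the protein genes carried by the mitochondrial genome of the rat, measured in the injured and implanted spinal cord. They were taken by their Ensembl IDs, and all 10 were found among the 22526 genes of the deposited table. Mt-nd1 (ENSRNOG00000030644), Mt-nd2 (ENSRNOG00000031033), Mt-nd3 (ENSRNOG00000033615), Mt-nd4 (ENSRNOG00000029707) and Mt-nd5 (ENSRNOG00000029971) encode core subunits of complex I, the enzyme that takes electrons from NADH. Mt-cyb (ENSRNOG00000031766) encodes cytochrome b, the core of complex III, which passes electrons on to cytochrome c. Mt-co1 (ENSRNOG00000034234), Mt-co2 (ENSRNOG00000030371) and Mt-co3 (ENSRNOG00000030700) encode the core of complex IV, cytochrome c oxidase, which reduces oxygen to water. Mt-atp6 (ENSRNOG00000031979) encodes a subunit of the proton channel of complex V, the ATP synthase. The deposited table pairs no symbols with its IDs, so these names come from the list of members and were not checked against a reference.

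RNA of the spinal cord had been sequenced from 6 adult female rats of the Sprague-Dawley strain, 2 weeks after the cord was injured; their sex was not checked here. The lesion of 3 rats held a decellularized optic nerve scaffold (DON), which is optic nerve stripped of its cells. In the other 3 rats the scaffold of this kind also carried Apt19S (A-DON), an aptamer, that is, a short folded nucleic acid that binds a target. All 6 rats were injured and implanted, so there was no uninjured or unimplanted group, and each rat gave 1 library. How much scaffold, scar and spared cord each piece held is not given in the sources used here, and the tissue could not be checked against cell markers, since no gene outside the 10 could be named.

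Mitochondrial genes are transcribed in long stretches that span many genes, and the stretches are then cleaved into separate messenger RNAs, most of which receive a short poly(A) tail and so enter libraries made from mRNA. Each messenger RNA has its own stability, so genes copied together need not be present at equal levels. The respiratory chain that these genes help to build provides most of the ATP of neurons. In a bulk sample a difference in the number of cells of a type and a difference in RNA per cell cannot be told apart.

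Levels are given as normalized counts, that is, reads of a gene divided by the size factor of its library. The libraries held 24961512 to 31189687 recovered reads. The member with the fewest reads, Mt-nd3, had 8802 to 10550 per library, so that counting error was at most 1.07% of any member's value and under the spread between rats. Counting error leaves out differences between rats and any copying of molecules during library preparation.

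Over all tested genes A-DON replicate 2 stood between the groups. Its score on principal component 1 was 15.6, beside 144 and 128 in the other A-DON rats and -113 to -71 in DON. Results that rest on it are therefore also given without it. Reads of mitochondrial origin can also match copies of mitochondrial DNA in the nuclear genome, and Mt-atp6 and Mt-nd4 overlap neighbouring mitochondrial genes. How the authors' counting treated such reads is not given in the sources used here.

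None of the 10 genes showed a difference in level between A-DON and DON that passed the test. That is 0 of the 10 members (limma, Benjamini-Hochberg adjusted p under 0.05 over all 19515 tested genes), beside 6930 of all tested genes (35.5%). All 10 passed the filter on low values. Of all tested genes, 18.9% were higher and 16.6% were lower in A-DON. The count over all genes changed with single libraries: 12 genes passed without A-DON replicate 3, 35 without A-DON replicate 1, 1552 without DON replicate 3 and 3890 and 3930 without DON replicates 1 and 2. It rose to 9286 without A-DON replicate 2, and 0 members passed in any of these fits. Each of them has fewer rats than the full fit. The fits without 1 A-DON rat are equal in size to one another, so their unlike counts depended on which rat was left out. How much of each fall came from lost power was not tested. At an unadjusted p under 0.05 there were also 0 members, and voom on recovered reads called 0. Their log2 fold changes, A-DON over DON, ran from -0.05 to 0.33 with a median of 0.08, beside a median of -0.02 for all tested genes. In size alone, without the sign, the median was 0.09 for the members and 0.67 for all tested genes. On this scale 6 members had a higher mean in A-DON and 4 a lower one.

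In the summed level of the 10 genes, rats of one group differed by more than the group means did. The summed normalized counts of the 10 genes were 1958679, 2103802 and 2825246 in DON replicates 1 to 3 and 2195160, 2146693 and 2826988 in A-DON replicates 1 to 3. The groups overlapped, and 1 rat of each group, replicate 3 in both, stood above the rest at almost the same value. The means were 2295909 ± 464126 in DON and 2389614 ± 379551 in A-DON (SD, n = 3 each), a ratio of 1.04. Replicate 3 was 1.39 times the mean of the other rats in DON and 1.30 times in A-DON. All 10 genes were highest in replicate 3 within each group. Over the genes other than the 10, the same ratios were 0.974 and 0.997. The labels use the same rat numbers in both groups and do not say whether rats of the same number are linked. What sets the third rat of each group apart was not tested.

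**Figure D1:**
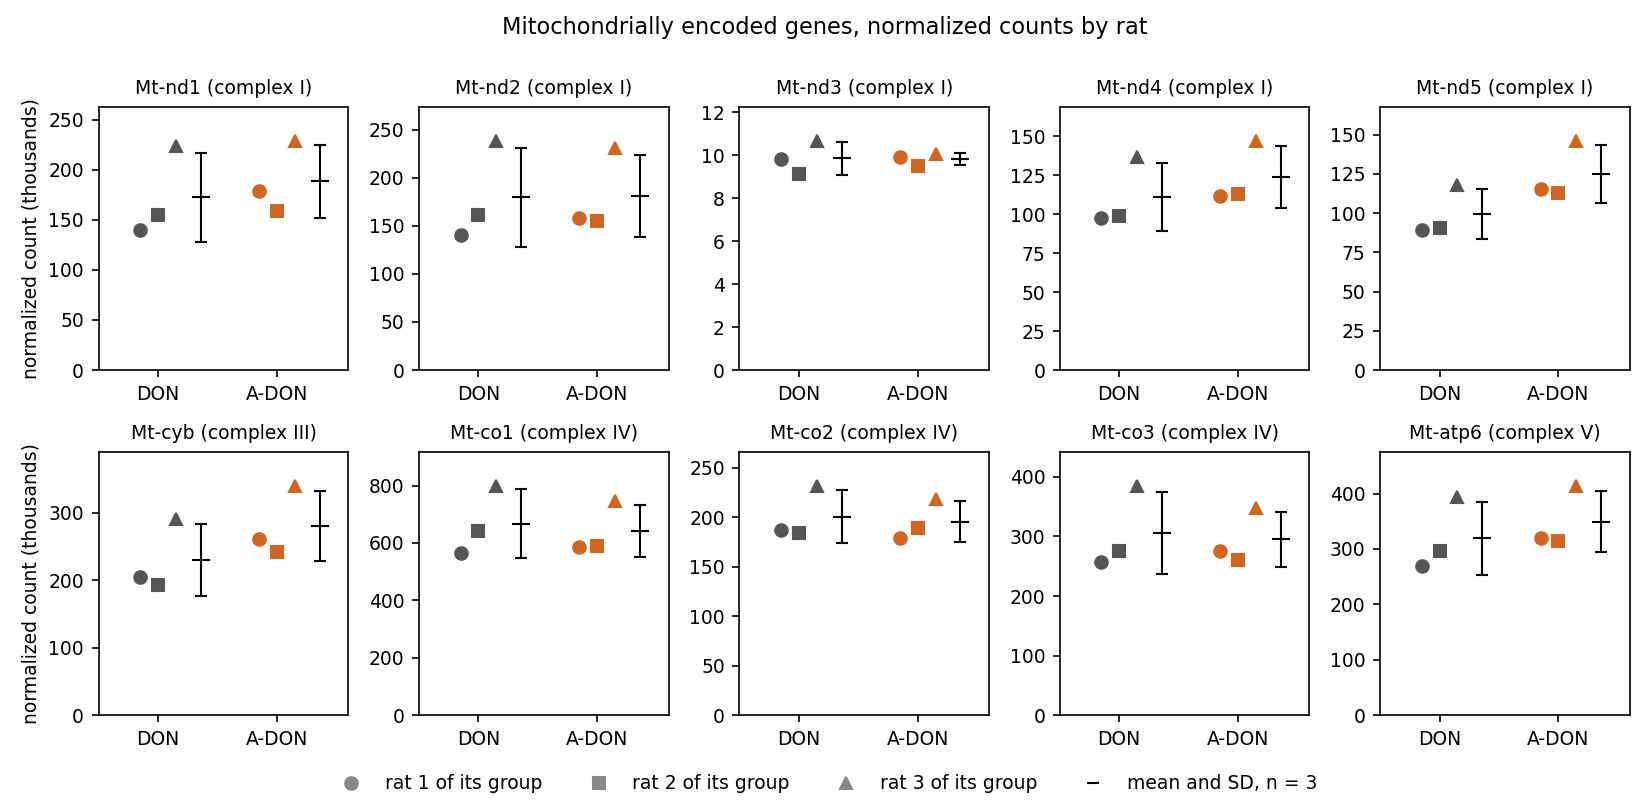
Normalized counts (vertical axes, divided by 1000, from 0) of each gene in the 3 DON rats (grey) and the 3 A-DON rats (orange), with the mean and SD of each group in black. In all 10 panels the third rat (triangle) is the highest of its group, and in none do the groups separate.

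Seen as a share of the library, the 10 genes held 6.59%, 7.25% and 9.60% of all normalized counts in DON replicates 1 to 3. In A-DON replicates 1 to 3 they held 7.89%, 7.97% and 10.1%. The mean share was 7.81 ± 1.58% in DON and 8.66 ± 1.26% in A-DON (SD, n = 3 each). The difference of 0.846 percentage points was smaller than the SD within either group, and the groups overlapped. It was 0.118 percentage points without A-DON replicate 3, 0.234 without DON replicate 1, 1.19 without A-DON replicate 2 and 1.74 without DON replicate 3. With the 10 most abundant other genes left out of the total it was 0.396 percentage points. Its size thus changed both with single rats and with the abundant other genes in the total. By complex, the members of complex IV held 3.99 ± 0.727% of all normalized counts in DON and 4.10 ± 0.519% in A-DON. Those of complex I held 1.95 ± 0.457% and 2.27 ± 0.391%. Mt-cyb held 0.782 ± 0.179% and 1.02 ± 0.172%, and Mt-atp6 1.09 ± 0.225% and 1.27 ± 0.185% (SD, n = 3 in each case). Gene by gene, the share of Mt-nd5 alone did not overlap, at 0.301%, 0.313% and 0.401% in the DON rats and 0.416%, 0.418% and 0.522% in the A-DON rats. That is 1 member of 10, beside 56.3% of all tested genes, 33.3% with A-DON above and 23.0% below.

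**Figure D2:**
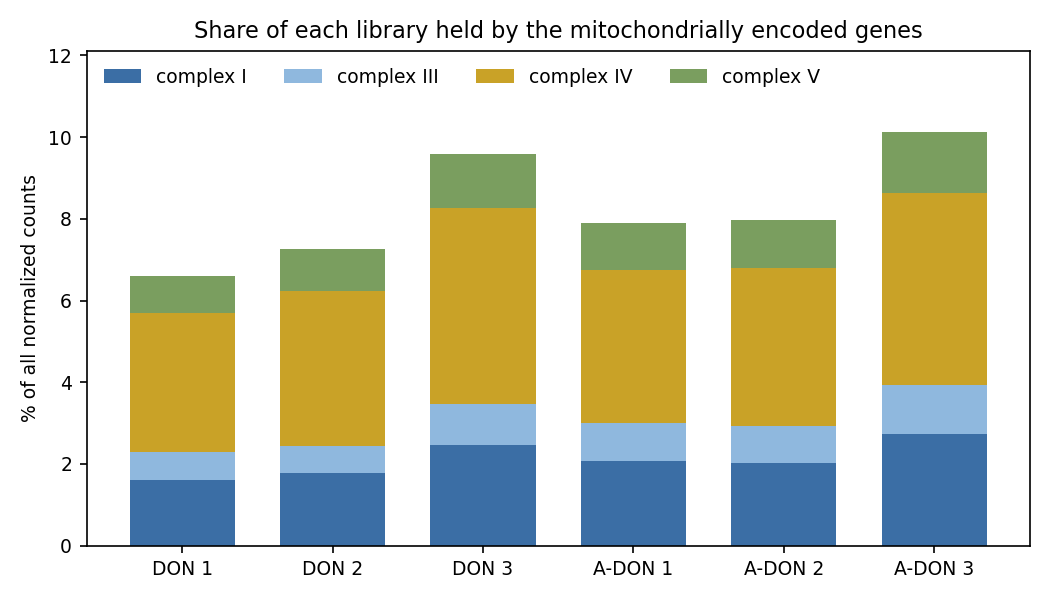
Share of all normalized counts (percent, from 0) held by the 10 genes in each library, stacked by the respiratory complex that each gene serves. The bars reach 6.59% to 9.60% in DON and 7.89% to 10.1% in A-DON, and the third rat has the tallest bar in both groups.

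The complex I genes ranged from Mt-nd3, with nearly equal means, to Mt-nd5, with the largest difference of all members. Mt-nd5 had 89371, 90717 and 118010 normalized counts in DON replicates 1 to 3 and 115669, 112657 and 145909 in A-DON replicates 1 to 3. Only the third DON rat reached into the range of A-DON. The log2 fold change of 0.33 ± 0.19 (standard error) was the largest of the 10 and did not pass (limma adjusted p = 0.212). The 95% confidence interval of the fold ran from 0.91 to 1.74. Mt-nd4 came next in complex I, with 97596 to 136426 normalized counts in DON and 111870 to 146895 in A-DON and a log2 fold change of 0.17 ± 0.21 (standard error). Mt-nd1 ran from 139874 to 223350 in DON and from 158492 to 228757 in A-DON (log2 fold change 0.14 ± 0.25). Mt-nd2 gave 140337 to 238034 and 154405 to 230295, with a log2 fold change of 0.02 ± 0.27, the widest standard error of the 10.

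Mt-nd3 was the steadiest member. It had 9804, 9108 and 10659 normalized counts in the DON rats and 9914, 9496 and 10051 in the A-DON rats. Its highest library was only 1.17 times its lowest, beside 1.30 to 1.76 times for the other 9 genes. The log2 fold change of Mt-nd3 was -0.0028, with a 95% interval for the fold of 0.82 to 1.21, the narrowest of the 10.

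Mt-cyb, for complex III, had 205357, 193250 and 291058 normalized counts in DON replicates 1 to 3. In A-DON replicates 1 to 3 it had 260473, 242427 and 339402. Here too only the third DON rat overlapped A-DON, and the log2 fold change of 0.30 ± 0.24 (standard error) did not pass (limma adjusted p = 0.352). The 95% interval of the fold was 0.82 to 1.83. With A-DON replicate 2 left out, Mt-nd5 and Mt-cyb had log2 fold changes of 0.40 and 0.40, again without a call (limma adjusted p of 0.157 and 0.243).

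The complex IV genes lay at nearly the same mean level in both groups. Mt-co1 had 563829, 640044 and 797776 normalized counts in the DON rats and 585886, 590248 and 745875 in the A-DON rats. The A-DON values lay inside the DON range, and the log2 fold change was -0.05 ± 0.22 (standard error; 95% interval of the fold 0.67 to 1.39). Mt-co2 ran from 183961 to 231452 in DON and 178724 to 218670 in A-DON, and Mt-co3 from 256880 to 384422 and 261200 to 347750. Their log2 fold changes were -0.03 and -0.04. The sign of these 3 and of Mt-nd3 depended on the scaling: with libraries set to equal totals, Mt-co1, Mt-co2, Mt-co3 and Mt-nd3 had log2 fold changes of 0.04, 0.06, 0.05 and 0.09.

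Mt-atp6, for complex V, ran from 268690 to 394060 normalized counts in DON and from 315041 to 413383 in A-DON, with overlap and a log2 fold change of 0.14 ± 0.22 (standard error; limma adjusted p = 0.648). None of the 10 genes had normalized counts that separated the groups, whereas 55.9% of all tested genes did, 28.0% with A-DON above and 27.9% with A-DON below.

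More of the 10 genes stood near the top of the A-DON libraries, although no member had normalized counts that separated the groups. Among the 10 genes with the most normalized counts in a library, 5, 6 and 6 were members in DON replicates 1 to 3. In A-DON replicates 1 to 3 the numbers were 9, 8 and 9. These members held 4.98%, 6.03% and 7.94% of the normalized counts in the DON libraries and 7.85%, 7.52% and 10.1% in the A-DON libraries. The other genes among the top 10 held 6.17%, 5.62% and 5.61% in DON, and 0.423%, 1.66% and 0.470% in A-DON. These parts sum unlike numbers of genes, since a library with more members in its top 10 has fewer other genes there. In a fixed set, the 10 other genes with the highest mean over all 6 libraries, the share was 8.02%, 8.10% and 8.24% in DON replicates 1 to 3 and 2.02%, 4.11% and 2.13% in A-DON replicates 1 to 3. That set was picked by these same values, so a gene could enter it through the group where it was high. Its share did not overlap between the groups, which is a description and not a test.

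Ranks by normalized counts depend on gene length, so each gene is compared only with itself across libraries. Mt-nd5 ranked 25, 20 and 16 in DON replicates 1 to 3 and 9, 11 and 9 in A-DON replicates 1 to 3. For Mt-nd4 the ranks were 24, 17 and 14 against 10, 10 and 8, and for Mt-nd1 16, 11 and 11 against 6, 8 and 6. Mt-cyb, Mt-co2 and Mt-atp6 were also nearer the top in every A-DON library than in any DON library. These 6 of the 10 stand beside 26.1% of all tested genes with ranks nearer the top in every A-DON library. Ranks near the top depend on one another, so these 6 are not independent. Mt-co1 already ranked first or second in every library, and Mt-nd3 ranked between 276 and 359 with overlap. Of the 22 other genes that averaged 50000 normalized counts or more, a minimum chosen after the values were seen, 12 were lower in A-DON (limma adjusted p under 0.05) and 2 were higher. Over all tested genes 16.6% were lower and 18.9% were higher. The 22 were picked by their mean over all 6 libraries, so a gene could enter through the group where it was high. Their counts are therefore a description and not a test.

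**Figure D3:**
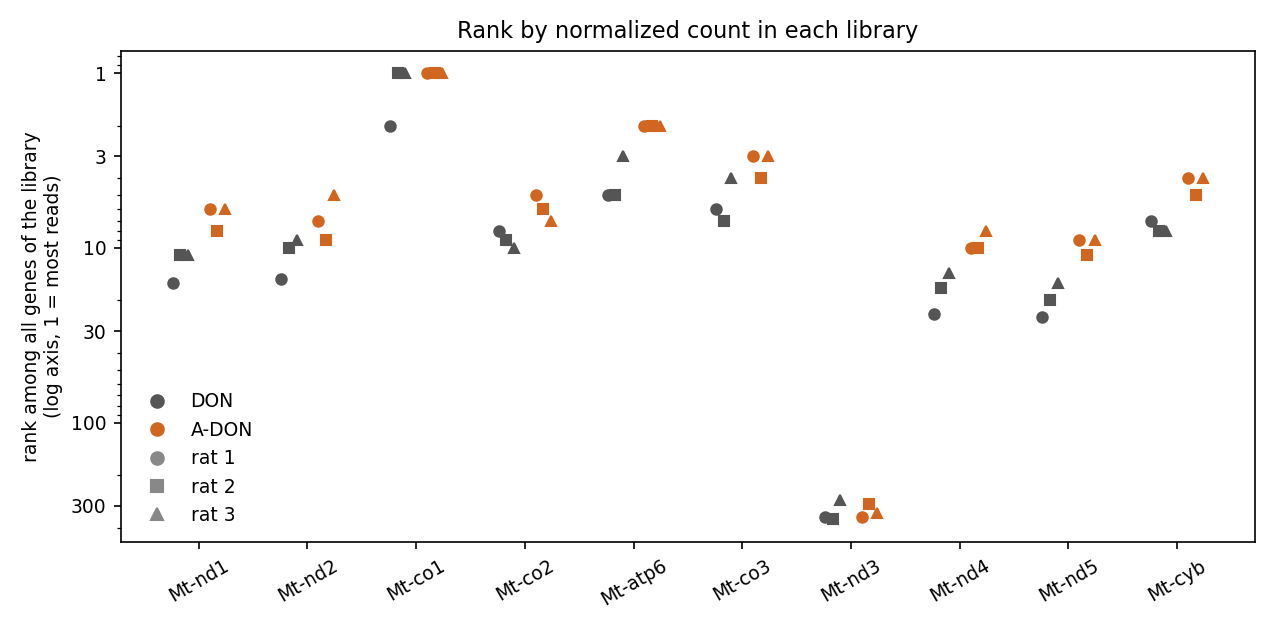
Rank of each gene among all genes of a library by normalized count (vertical axis, log scale, 1 at the top) in the DON rats (grey) and the A-DON rats (orange). Mt-nd1, Mt-co2, Mt-atp6, Mt-nd4, Mt-nd5 and Mt-cyb rank nearer the top in all 3 A-DON libraries, while Mt-nd3 stays between 276 and 359.

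The choice of scaling decided whether any member was called. Quantile normalization gives every library the same set of values in order of rank, so a gene that moves up in rank moves up in value by construction. Under it 6 of the 10 members were higher in A-DON, beside 18.8% of all tested genes, and none were lower, beside 17.7% (limma, adjusted p under 0.05; 36.4% called in either direction). These were Mt-nd1, Mt-nd4, Mt-nd5, Mt-cyb, Mt-co2 and Mt-atp6, with log2 fold changes of 0.55 for Mt-co2 to 0.93 for Mt-nd5 and limma adjusted p of 0.0163 to 0.0441. All 6 were among the 6 genes with separate ranks. Equal library totals, equal totals of the genes other than the 10, and equal upper quartiles each called 0 members. Equal totals also changed the balance over all genes, from 3698 higher and 3232 lower to 4360 higher and 2422 lower. Equal totals of the other genes moved the median log2 fold change over all tested genes from -0.02 to 0.08.

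**Figure D4:**
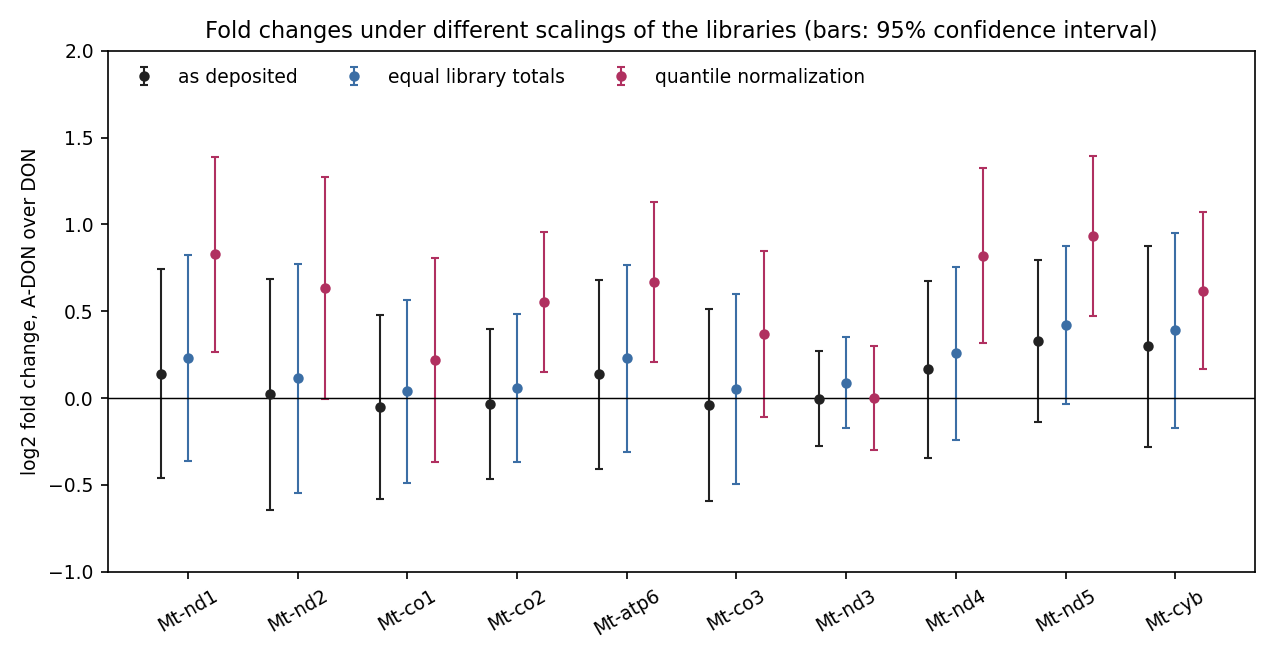
Log2 fold change of each gene, A-DON over DON, with its 95% confidence interval from limma, on the deposited values (black), with equal library totals (blue) and after quantile normalization (red). All 10 black and all 10 blue intervals include 0, and the red intervals of 6 genes lie above 0.

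The make-up of the 10-gene sum separated the groups for some genes, while the sum itself overlapped. Each gene was expressed as a share of the 10-gene sum, a measure that no scaling of a whole library can alter. For 6 of the 10 genes these shares did not overlap between A-DON and DON, 4 above and 2 below. Separation was common in these data: relative to the same sum, 40.8% of all tested genes did not overlap, 21.6% with A-DON above and 19.2% below. With 3 rats against 3, an exact two-sided permutation test cannot give a p below 0.1, which is the value for each of the 6 genes, so none can pass a threshold of 0.05. In a limma fit with libraries scaled to equal 10-gene sums, a setting chosen after seeing the data, no member passed, beside 18.6% of all tested genes. The largest difference in that fit was that of Mt-nd5, with a log2 fold change of 0.27 (limma adjusted p = 0.441).

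Mt-nd5 and Mt-cyb took a larger part of the 10-gene sum in every A-DON rat than in any DON rat. Mt-nd5 made up 4.56%, 4.31% and 4.18% of the 10-gene sum in DON replicates 1 to 3 and 5.27%, 5.25% and 5.16% in A-DON replicates 1 to 3. The group means were 4.35 ± 0.196% and 5.23 ± 0.0572% (SD, n = 3 each), and the gap of 0.876 percentage points was wider than either SD. Mt-cyb made up 10.5%, 9.19% and 10.3% in DON and 11.9%, 11.3% and 12.01% in A-DON, a difference of 1.73 percentage points between means with SDs of 0.703 and 0.378. Without A-DON replicate 2 the differences were 0.865 percentage points for Mt-nd5 and 1.95 for Mt-cyb.

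Mt-nd4 and Mt-atp6 were also above DON in all 3 A-DON rats, by less. Mt-nd4 made up 4.98%, 4.70% and 4.83% in DON and 5.10%, 5.27% and 5.20% in A-DON. Mt-atp6 made up 13.7%, 14.1% and 13.9% in DON and 14.6%, 14.7% and 14.6% in A-DON.

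Of the 3 genes of cytochrome c oxidase, Mt-co1 and Mt-co3 lay below DON in all 3 A-DON rats and Mt-co2 overlapped. Mt-co1 made up 28.8%, 30.4% and 28.2% of the 10-gene sum in DON replicates 1 to 3 and 26.7%, 27.5% and 26.4% in A-DON replicates 1 to 3. Mt-co3 made up 13.1%, 13.1% and 13.6% in DON and 12.6%, 12.2% and 12.3% in A-DON. For Mt-co2 the groups overlapped, at 8.83 ± 0.680% in DON and 8.24 ± 0.555% in A-DON (SD, n = 3 each). In sum the 3 genes of complex IV made up 51.4%, 52.3% and 50.0% of the sum in the DON rats and 47.4%, 48.5% and 46.4% in the A-DON rats. All 3 A-DON rats lay below all 3 DON rats, with a difference of -3.81 percentage points between means. It was -4.34 percentage points without A-DON replicate 2. Mt-co1 was the largest part of the complex IV share, so this difference is not separate from that of Mt-co1. The summed share of the complex I genes overlapped between the groups, at 24.8 ± 0.758% in DON and 26.2 ± 0.710% in A-DON (SD, n = 3 each).

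Shares that sum to 100% move one another, so the shares were also taken without Mt-co1 in the sum. Of the other 9 genes 3 then separated the groups: Mt-nd5 and Mt-cyb above, and Mt-co3 below. Relative to the same 9-gene sum, 40.1% of all tested genes separated, 3896 with A-DON above and 3934 (20.2%) with A-DON below, so 3 of 9 is not above that share. Mt-nd4 and Mt-atp6 overlapped between the groups in that form. Ratios of a pair of genes avoid the sum altogether, and 3 were computed after the shares had been seen. They are given as values without a test. The ratio of Mt-cyb to Mt-co1 was 0.364, 0.302 and 0.365 in DON replicates 1 to 3 and 0.445, 0.411 and 0.455 in A-DON replicates 1 to 3. It had to separate, because the share of Mt-cyb was above and that of Mt-co1 below DON in every A-DON rat, and so it adds nothing to those shares. Within complex I, Mt-nd5 per Mt-nd4 was 0.916, 0.916 and 0.865 in DON and 1.03, 0.996 and 0.993 in A-DON, without overlap. Within complex IV, Mt-co1 per Mt-co2 overlapped, at 3.31 ± 0.259 in DON and 3.27 ± 0.149 in A-DON (SD, n = 3 each).

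As background, the heavy-strand transcript of mammalian mitochondria carries the members in the order Mt-nd1, Mt-nd2, Mt-co1, Mt-co2, Mt-atp6, Mt-co3, Mt-nd3, Mt-nd4, Mt-nd5 and Mt-cyb, with other genes between them. Along this order the share in A-DON was 1.05 times that in DON for Mt-nd1 and 0.970 times for Mt-nd2, with overlap in both cases. It was 0.921 for Mt-co1, 0.933 for Mt-co2 (with overlap), 1.05 for Mt-atp6 and 0.930 for Mt-co3. Mt-co1, Mt-atp6 and Mt-co3 separated the groups. Mt-nd3 had 0.953 with overlap. The last genes of the order, Mt-nd4, Mt-nd5 and Mt-cyb, had 1.07, 1.20 and 1.17, and all separated the groups. With Mt-co1 left out of the sum, Mt-nd4 overlapped. Over the rest of the order, genes with a larger and with a smaller share were mixed.

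**Figure D5:**
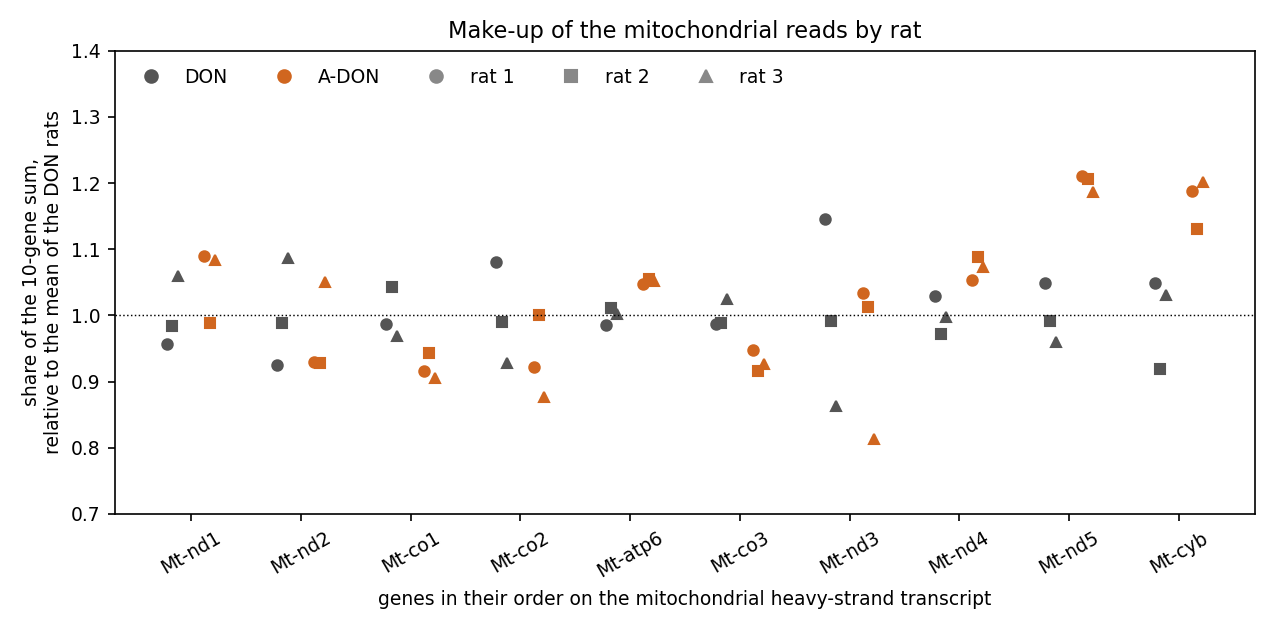
Share of each gene in the 10-gene sum, divided by its mean in the DON rats (vertical axis; the dotted line marks 1), for the DON rats (grey) and the A-DON rats (orange), with genes in transcript order. Mt-nd5 and Mt-cyb show the widest separation upward, with mean ratios of 1.20 and 1.17, and Mt-co1 and Mt-co3 lie below 1 in all 3 A-DON rats.

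The members moved together from rat to rat, some more loosely than others. Over the 45 pairs of members, Pearson's r of log2 values across the 6 libraries ran from 0.55, for Mt-nd3 with Mt-nd5, to 0.99, with a median of 0.87. These coefficients describe 6 libraries in which all genes share the high values of replicate 3 and the size factors. Against the sum of the other 9 genes, r was highest for Mt-nd2 (0.99) and lowest for Mt-nd3 (0.72), with 0.80 for Mt-nd5 and 0.85 for Mt-cyb. Rats varied by a median log2 SD of 0.28 in DON and 0.22 in A-DON over the 10 members. For the other genes that averaged 1000 normalized counts or more the medians were 0.18 and 0.20, and over all tested genes, most of them at lower levels, 0.28 and 0.29.

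Of the 6135 other genes at that level, the pair whose log2 values followed the summed members most closely were ENSRNOG00000020411 (Pearson's r = 0.96 over 6 libraries) and ENSRNOG00000018945 (r = 0.90). ENSRNOG00000020411 had 2162, 2159 and 2659 normalized counts in DON replicates 1 to 3 and 2230, 2130 and 2546 in A-DON replicates 1 to 3, so that the third rat was again the highest in each group. ENSRNOG00000018945 had 1421 to 1486 in DON and 1413 to 1514 in A-DON. Its log2 range was 0.10, against 0.53 for the summed members, so it followed the pattern at a much smaller size. The best of 6135 genes over 6 libraries can reach a high r without any link.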

How the data were processed

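Per the labels' protocols, total RNA of the cord, 3 rats per group, went into stranded mRNA libraries. STAR 2.5.3a, FastQC 0.11.2, StringTie 1.3.1c and build rn6 are listed, with no role, in the submitters' processing notes. Nothing in the sources used here names the counting program, its strand setting or the annotation. The values as deposited by the authors are log2 values from 0 to 19.8. After the log2 was undone and 1 subtracted, 100% of values were whole multiples of 1 step per library (tolerance 0.05 reads), and the steps matched median-of-ratios size factors, so each value is log2(read count / size factor + 1). No 2 libraries agreed within sampling noise (chi-square per degree of freedom 18.8 to 604.7).

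The 2 groups were compared with a limma model on group alone (limma 3.58.1, statmod 1.5.0, R 4.3.3), with trend and robust moderation. Genes needed 1 or more normalized counts in 3 or more libraries. Log2 fold changes refer to log2(value + 1). P-values were adjusted by Benjamini-Hochberg over all tested genes. Shares and ratios used Python 3.11.15, numpy 2.4.6 and pandas 2.3.3, and exact permutation tests over rats.

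The members and lists were chosen with earlier results of these data known, so no p is given for a score over the members or adjusted over them, although the design had planned both. Alternatives were other scalings, filters and pseudocounts, voom, plain limma, blocking by replicate number, and dropping each library in turn. The rule named all 10 members and the 2 genes most like their sum. None of the table's IDs matched the reference of 47357 genes, so 19 lists of nuclear respiratory chain genes, mitochondrial regulators and cell markers gave no value. Coding lengths, and with them levels per length, and sequences of these genes are not used here.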

Additional observations from a re-analysis of the deposited data

How the results depend on the processing

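No member passed the threshold under any of the 20 alternatives other than quantile normalization, which called 6. Mt-nd4, Mt-nd5, Mt-cyb and Mt-atp6 kept a higher mean in A-DON under all 20. Filters, plain limma and a replicate block cannot change a mean difference here, so those alternatives repeat a value by design. The other 6 members changed sign under at least 1 alternative, and Mt-co2 was called with the opposite sign under quantile normalization. With equal totals the log2 fold changes were 0.040 (Mt-co1), 0.058 (Mt-co2), 0.052 (Mt-co3) and 0.090 (Mt-nd3). With equal totals of the other genes they were 0.053, 0.071, 0.066 and 0.10. Quantile normalization gave 0.22 (Mt-co1), 0.55 (Mt-co2, called), 0.37 (Mt-co3) and 0.0013 (Mt-nd3), upper quartiles 0.0044 for Mt-nd3, and equal 10-gene sums -0.044 for Mt-nd2 (the same with plain limma or a replicate block, and -0.014 without A-DON replicate 2). Leaving out 1 library gave -0.0072 to 0.34 for Mt-nd1, -0.17 to 0.24 for Mt-nd2, -0.17 to 0.084 for Mt-co1, -0.12 to 0.072 for Mt-co2, -0.16 to 0.14 for Mt-co3 and -0.058 to 0.055 for Mt-nd3.

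Over all genes, the count past the threshold (6930) was 3633 with equal 10-gene sums, 2249 higher and 1384 lower. With equal 10-gene sums it was 2355 under plain limma (1772 higher, 583 lower), 7289 without A-DON replicate 2 (2961 higher, 4328 lower) and 0 with a replicate block (7522 at an unadjusted p under 0.05). All 4 of these fits were chosen after seeing the data. Leaving out 1 library gave 12 to 9286 genes, 11 to 4431 higher and 1 to 4855 lower, lowest without A-DON replicate 3 and highest without A-DON replicate 2. Those fits have fewer rats. A limma fit with a replicate block called 0 genes, while 7601 had an unadjusted p under 0.05. Same-numbered rats did not deviate together (r = -0.17, -0.24 and -0.08), and no A-DON rat correlated best with its own number. The block cannot change the share difference of 0.846 percentage points, since each replicate number holds 1 rat of each group.

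Within the 10-gene sum, leaving Mt-co1 out of the denominator reduced the separated genes from 6 to 3, and gave a complex V difference of 0.355 percentage points. Leaving out 1 library gave 6 to 8 separated genes, beside 43.0% to 58.5% of all tested genes in the same form, differences in share of -0.55 to 0.10 percentage points for Mt-nd2 and -0.050 to 0.011 for Mt-nd3, and -4.43 to -3.29 for complex IV. The cause of these changes was not tested. With 3 rats per group, not depth, limiting the precision, small differences in level cannot be seen.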
